A study of Homo sapiens with 36 samples.

Results

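Chromosome 19 was followed along its length in chromatin immunoprecipitation data from the breast cancer line SUM-229PE, which is of the triple-negative type. All regions that the deposited tables list on chromosome 19 were taken, in order of their start on the hg19 build. They number 8831 of the 434639 regions in 7 tables, of which 5284 are regions of the acetylated histone mark H3K27ac in 6 tables and 3547 are binding sites of JUNB in 1 table. Regions below 26 Mb were counted to the p arm and those above to the q arm, which gave, for example, 454 and 512 H3K27ac regions in the table of POS and NEG cells, and 1397 and 2150 JUNB sites. The tables overlap, so the same stretch of DNA can be listed in several of them. Changes were then read in sliding segments of 2 Mb, stepped by 1 Mb, that held at least 10 tested regions. The chromosome was selected on measured values, namely its H3K27ac and JUNB log2 fold changes between POS and NEG, between POSR and POS, and under trametinib. Values of those comparisons are therefore given as a description. POSR2 against POSR1 is the difference of 2 of those comparisons, in the same libraries, and is a description too. Only the comparison of POS with NEG at day 0 is given with its test; its libraries are not those of the acute comparison, but they are the controls of the day 14 changes.

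H3K27ac marks active promoters and enhancers, and JUNB is a subunit of AP-1, a transcription factor that acts downstream of MEK and ERK signalling. Human chromosome 19 is gene-dense, and it carries the AP-1 genes JUNB and JUND on its short arm, FOSB on its long arm, and large clusters of zinc-finger genes. The read count of a region in such an assay depends both on how much mark or factor each DNA copy carries and on how many copies the cells have. The input libraries have no column in the count tables, so these 2 quantities cannot be told apart here.

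The line was sorted by the surface proteins EpCAM and CD49f into POS cells, which carry them, and NEG cells, which lack both. All groups are cultures of this 1 line. Acute groups received DMSO (3 POS and 2 NEG H3K27ac libraries) or the MEK inhibitor trametinib at 30 nM for 24 hours (3 POS and 2 NEG). Chronic groups were taken at day 0 and at day 14 of 10 nM trametinib, with 2 H3K27ac libraries each of POS and of NEG. POSR1 and POSR2 have 2 H3K27ac libraries each, and the labels give neither their derivation nor whether drug was present at collection. JUNB was profiled in POS and NEG cells given DMSO, with 2 libraries each. Whether replicates are separate cultures is not in the labels, so the spread between them, and any p-value, may be technical. Regions were not assigned to genes, and no sequence is shown, because no genome of the files' build was used here.

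H3K27ac libraries held 1861227 to 9212006 counts over all listed regions and 48382 to 183074 on chromosome 19, where the median region had 36 to 98 counts. JUNB libraries held 80228 to 179695 counts on the chromosome, with a median of 13 to 29 per site. Replicates of a group differed by more than sampling noise in each pair (chi-square per degree of freedom 1.1 to 4.8). All log2 fold changes come from edgeR's quasi-likelihood fit over all regions of a table, and a region is counted as higher or lower when its Benjamini-Hochberg adjusted p was under 0.05. The standard error (SE) printed after ± is the absolute log2 fold change divided by the square root of the test's F statistic. It can be too small where a group holds few counts.

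Chromosome 19 was sparsely marked for its number of genes. It held 1.53 to 2.14% of the H3K27ac regions in the 6 tables and 2.42% of the JUNB sites, but 7.24% of protein-coding genes (1451 of 20037 in RefSeq, GRCh38.p14). The ratio of regions to genes was 0.416 to 0.724 for H3K27ac, against a median of 1.42 to 2.85 over 23 chromosomes, and was the lowest of the 23 in each table. For JUNB it was 2.44 against a median of 7.37, again the lowest. Per megabase the chromosome was not extreme: it ranked 6th to 14th from the lowest for H3K27ac and 20th for JUNB. The median gap between neighbouring H3K27ac regions was 19100 to 27700 bases, and that between JUNB sites was 6290. The widest empty stretch measured 4.05 to 8.58 Mb and lay between positions 19702908 and 28284217 in all tables, although its ends differed from table to table. Whether reads can be placed throughout this stretch was not tested, so its emptiness need not be a lack of mark or binding.

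The share of a library's counts that fell on each arm separated the cell groups before any fold change was computed. On the q arm, H3K27ac took 0.806, 0.758 and 0.778% of the counts in the 3 POS libraries given DMSO and 1.55 and 1.58% in the 2 NEG libraries. The p arm of the POS libraries held 0.635, 0.575 and 0.607%, and that of the NEG libraries 0.721 and 0.76%. POS and NEG thus did not overlap on either arm, and they lay further apart on the q arm. For JUNB, the q arm took 0.864 and 0.936% in POS and 1.48 and 1.54% in NEG, while the p arm took 0.659 and 0.706% in POS and 0.641 and 0.712% in NEG. The JUNB shares overlapped on the p arm and did not on the q arm. POSR1 (1.36 and 1.35%) and POSR2 (1.3 and 1.28%) had q-arm H3K27ac shares above those of POS in the same table (0.816, 0.785 and 0.796%).

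**Figure D1:**
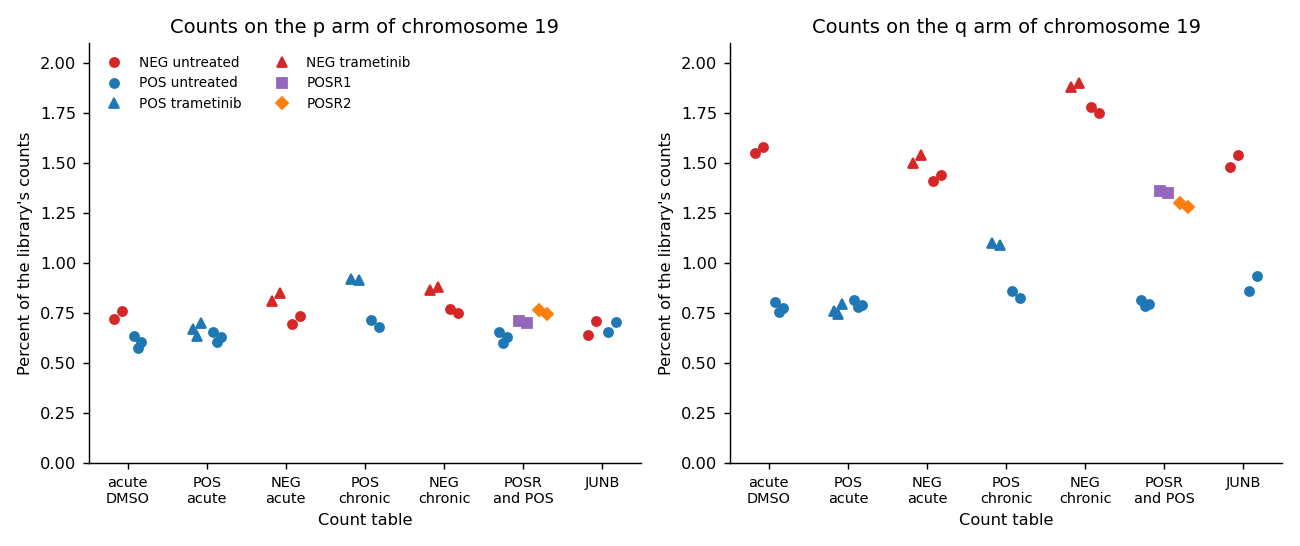
Percent of each library's counts that fell on the p arm (left) and the q arm (right) of chromosome 19, by count table; each point is 1 library, and the vertical axes start at 0. On the q arm the NEG points lie above the POS points in both tables that hold POS and NEG, and the POSR1 and POSR2 points lie between 1.28 and 1.36%, above the POS points of their table.

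H3K27ac on the q arm was lower in POS than in NEG cells given DMSO. The median log2 fold change, POS over NEG, was -1.01 on the q arm (512 regions) and -0.18 on the p arm (454), against -0.04 over all 57023 regions tested. Taken per library, relative to the mean of the NEG libraries, the q-arm median was -0.88, -1.08 and -1.02 in the 3 POS libraries and -0.02 and 0.02 in the 2 NEG libraries. On the p arm the POS libraries stood at -0.14, -0.29 and -0.25, and the NEG libraries at -0.04 and 0.04. The q-arm values of POS lie far from those of NEG, and the p-arm values lie close to them without overlapping. On the q arm 108 regions were higher in POS and 303 lower; on the p arm 133 were higher and 187 lower. Over all regions 38.6% were higher and 38% lower in POS, 76.5% in either direction. With library totals in place of trimmed-mean scaling, the median of all regions moved to -0.19, and those of the p and q arm to -0.34 and -1.18.

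The decrease was not even along the q arm. Of 28 q-arm segments, 22 had a median below 0. The lowest was 52 to 54 Mb, at -2.33 over 12 regions, of which none was higher and 9 were lower in POS. In that segment the 3 POS libraries stood at -2.43, -2.01 and -2.24 and the NEG libraries at -0.02 and 0.02. From 44 to 57 Mb all segments lay between -2.33 and -0.70, with 48 of 290 regions higher and 191 lower. Stretches that went the other way were 30 to 32 Mb, at 1.01 over 13 regions (but -0.02 over the 19 regions from 30 to 33 Mb), 37 to 40 Mb, with segments at 0.63 over 16 and 0.39 over 37, and 42 to 45 Mb, with segments at 0.08 and 0.26. On the p arm, the first 4 Mb were lower in POS, with a median of -0.64 over 112 regions, and 15 to 17 Mb was higher, at 0.53 over 36.

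**Figure D2:**
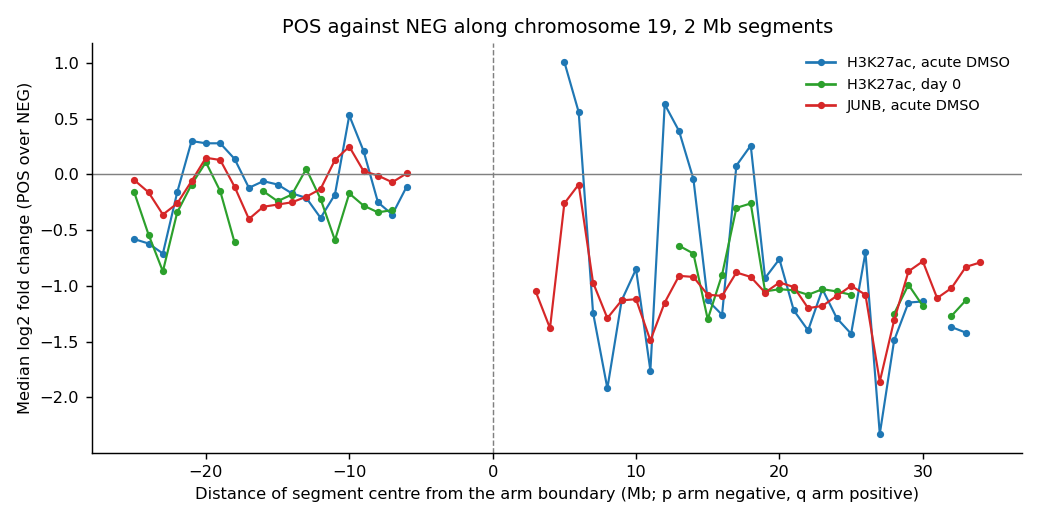
Median log2 fold change, POS over NEG, in 2 Mb segments of chromosome 19 against the distance of the segment's centre from the arm boundary, for H3K27ac in acute DMSO libraries, H3K27ac in day 0 libraries and JUNB in acute DMSO libraries. Left of the dashed boundary the 3 lines stay between -0.87 and 0.53; right of it the JUNB and day 0 lines stay below 0, while the acute H3K27ac line falls to -2.33 and rises above 0 in 6 segments.

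The named single regions differed far more than the arm medians, as their choice by fold change and by groups without overlap requires. The list is a union over POS and NEG, so regions weak in 1 cell type may be listed through the other alone. At chr19:54875851-54876852 on the q arm, H3K27ac was 0.38, 1.25 and 1.27 CPM (counts scaled to a common library total, after trimmed-mean scaling) in POS and 90.9 and 95.9 CPM in NEG, a log2 fold change of -6.66 ± 0.27 (SE). All POS values were under 2 CPM, and the JUNB site listed within this region at 54876567 was lower in POS as well, by -3.91 ± 0.41. The region chr19:34765320-34766321 had 1.39, 1.67 and 1.59 CPM in POS and 95.2 and 89 CPM in NEG (-5.89 ± 0.24). Its JUNB site also differed, by -4.66 ± 0.33. The p-arm region chr19:8635690-8636691 and the q-arm region chr19:54494610-54495611 completed the 4 named lower regions, with log2 fold changes of -4.52 ± 0.28 and -4.28 ± 0.25. The 4 named regions that were higher in POS all lay on the p arm. The first of them, chr19:7486182-7487183, had 50.9, 29.2 and 42.5 CPM in POS and 1.07 and 1.06 CPM in NEG (5.25 ± 0.32). The other 3, starting at 9185323, 17561346 and 15183661, had log2 fold changes of 4.76, 4.75 and 4.64.

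JUNB binding showed the arm difference as well. The median log2 fold change, POS over NEG, was -1.03 over 2062 tested q-arm sites and -0.12 over 1333 p-arm sites, against -0.02 over all 141580 sites tested. Per library the q-arm median was -1.05 and -0.85 in POS and -0.02 and 0.02 in NEG, whereas the p-arm median was -0.15 and -0.02 in POS and -0.08 and 0.08 in NEG. POS and NEG overlapped on the p arm and not on the q arm. On the q arm 210 sites were higher and 1248 lower in POS, on the p arm 253 and 266, and over all sites 28.5% were higher and 29.4% lower, 57.9% in all. Of 3547 listed sites, 3395 passed the filter on low counts. The count of 1977 called sites on the chromosome fell to 1241 without the first POS library, while the q arm median was then -0.95. DESeq2 called 1117.

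All 32 JUNB segments of the q arm had a median below 0, from -0.09 to -1.86. The 2 arms differed from their nearest segments on: the last p-arm segment, 19 to 21 Mb, stood at 0.01 over 45 sites and the first q-arm segment, 28 to 30 Mb, at -1.05 over 15. The lowest segment was 52 to 54 Mb, as for H3K27ac, where none of 75 sites was higher and 63 were lower in POS. Sites in segments from 30 to 33 Mb were the exception, at -0.26 and -0.09. Between 37 and 45 Mb, where acute H3K27ac medians ranged from -1.26 to 0.63, JUNB medians stayed between -1.15 and -0.88. Highest on the chromosome was 15 to 17 Mb on the p arm, at 0.25 over 104 sites.

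At the JUNB site chr19:15704694-15704895, POS libraries had 14.1 and 6.48 CPM and neither NEG library had a count, so JUNB was at least 48.7-fold higher in POS, when 3 counts are taken as the NEG group's floor. This floor covers counting error only, since reads carry no molecular identifiers. At chr19:51472650-51472851 the levels were 44.3 and 58.4 CPM in POS and 0.944 and 0.871 CPM in NEG (5.78 ± 0.35). This site was higher in POS although it lies on the q arm, as were the named sites starting at 42278536 and 31745186 (5.46 ± 0.40 and 5.02 ± 0.41). The site chr19:47466398-47466599 went the other way, with 0.465 and 0.381 CPM in POS and 36 and 32.6 CPM in NEG (-6.25 ± 0.40). At chr19:33601231-33601432 the levels were 1.05 and 0.191 CPM in POS and 39.9 and 39.5 CPM in NEG (-5.76 ± 0.37). The H3K27ac region over that last site was lower in POS too, by -4.10 ± 0.34. The remaining named sites, starting at 10051577 and 52230706, had 3 counts in POS against 225 and 197 in NEG.

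Regions of both marks lay together on the chromosome. A JUNB site, with at least 50% of its length inside, was found in 786 of 966 H3K27ac regions (81.4%), in 87.3% of those on the q arm and in 74.7% on the p arm, against 77.2% of all H3K27ac regions. Where both marks were called, 425 of 436 regions had the same direction (97.5%), against 96.5% over all regions. On the q arm 227 regions were lower and 64 higher in POS for both marks, and on the p arm 64 and 70. The q-arm decrease of JUNB was present inside H3K27ac regions (median -0.94 over 529 sites) and outside them (-1.07 over 1533). It was also present at all levels when sites were grouped by the quartiles of mean level over all sites. From the weakest to the strongest group (490, 621, 575 and 376 q-arm sites), q-arm medians were -1.27, -1.11, -0.92 and -0.91. All sites had medians of 0.15, -0.05, -0.04 and -0.08 in these groups. For acute DMSO H3K27ac, grouped likewise, q-arm medians were -0.57, -1.17, -0.73 and -1.14, against -0.73, -0.23, 0.26 and 0.41 over all regions. In the weakest group the H3K27ac q arm thus did not lie below all regions.

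The comparison of POS with NEG at day 0 used libraries that had no part in the acute comparison. Day 0 regions of the POS and NEG tables were matched by a reciprocal overlap of 50%, which left 425 of 15794 matched regions on chromosome 19. POS and NEG were each counted over their own region of a match, and the positions printed are those of POS. Part of a difference can therefore come from unlike intervals. H3K27ac was lower in POS on the q arm here too: 27 regions were higher and 175 lower of 234, by edgeR's quasi-likelihood test and adjustment over all regions, where 35.5% of all tested regions were higher and 36.3% lower (71.8% called). The p arm had 44 higher and 79 lower of 191. Median log2 fold changes were -0.96 on the q arm, -0.27 on the p arm and -0.04 over all 15788 regions tested, and that of chromosome 19 as a whole, -0.68, was the lowest of 23 chromosomes, with the next at -0.48. In the acute comparison it was second lowest, at -0.53, with another chromosome at -0.75. Per library the q-arm median was -0.93 and -0.99 in POS and 0.03 and -0.03 in NEG, and the p-arm median -0.25 and -0.28 against 0.03 and -0.03. POS and NEG did not overlap on either arm. Per-library medians over all regions did not overlap either, at -0.04 and -0.02 in POS and 0.01 and -0.01 in NEG, but they lay far closer together.

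All 18 q-arm segments with enough matched regions had a median below 0 at day 0, from -1.30 at 40 to 42 Mb, where all 13 regions were lower in POS, to -0.26 at 43 to 45 Mb. From 44 to 52 Mb the segments lay between -1.08 and -1.03, with 11 of 119 regions higher and 92 lower. Matching keeps only regions that were called in both tables, so stretches marked in 1 cell type alone drop out. Among 345 regions matched between the acute and the day 0 comparison, 231 were called in both, and 230 of these had the same direction, including all 149 on the q arm. Over all chromosomes this share was 99.7%.

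Named regions of the day 0 comparison lay on both arms. At chr19:54510939-54511940, H3K27ac was 11.2 and 16.7 CPM in POS and 205 and 208 CPM in NEG, which gives -3.96 ± 0.16 on the log2 scale (edgeR's quasi-likelihood test, Benjamini-Hochberg adjusted p = 1.1e-127). At chr19:45879620-45880621 the levels were 16.7 and 14.4 CPM in POS and 221 and 221 CPM in NEG (-3.80 ± 0.16, adjusted p = 6.7e-127 by the same test). Both lie on the q arm, and both overlap JUNB sites that were lower in POS (-2.81 ± 0.25 and -5.73 ± 0.34). Lower as well were chr19:2598835-2599836 on the p arm (-2.95 ± 0.19) and chr19:34760721-34761722 on the q arm (-2.82 ± 0.16). In the other direction, chr19:8053468-8054469 on the p arm had 95.6 and 89.9 CPM in POS and 5.89 and 5.35 CPM in NEG (4.03 ± 0.21, adjusted p = 2.6e-76 by edgeR). The q-arm region chr19:47265347-47266348 had 125 and 113 CPM in POS and 7.07 and 8.56 CPM in NEG (3.95 ± 0.19, adjusted p = 2.2e-91 by edgeR), against the direction of its surroundings. The matching acute region, starting at 47265332, differed by 4.12 ± 0.25, and its JUNB site by 3.07 ± 0.38.

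In POSR1 and POSR2 the q arm carried more H3K27ac than in POS. The median log2 fold change over POS was 0.76 on the q arm and 0.17 on the p arm in POSR1, and 0.70 and 0.27 in POSR2, with -0.04 and 0 over all 53524 regions tested. Per library the q-arm median was 0.76 and 0.74 in POSR1, 0.70 and 0.67 in POSR2, and 0.07, -0.07 and 0 in the 3 POS libraries. The p-arm median was 0.19 and 0.19 in POSR1, 0.31 and 0.27 in POSR2 and 0.10, -0.09 and 0.01 in POS. Neither POSR group overlapped with POS on either arm. Per-library medians over all regions were -0.03 and -0.03 in POSR1 and 0.01, -0.01 and 0.01 in POS, so POSR1 stood slightly apart there too. POSR2, at 0.01 and 0, overlapped with POS over all regions. Of 580 q-arm regions, 373 were higher and 30 lower in POSR1, and 370 and 30 in POSR2. On the p arm, with 471 regions, the counts were 153 and 93 in POSR1 and 179 and 66 in POSR2. Over all regions, 26.5% were higher and 29.4% lower in POSR1 (55.9% called), and 28.2% and 29.2% in POSR2. Both comparisons use the same POS libraries, which also serve in the comparison of POS with NEG.

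All 32 q-arm segments had a median above 0 in POSR1, from 0.54 to 2.80, and in POSR2, from 0.07 to 2.94. The highest in both was 27 to 29 Mb, the first segment of the q arm, where all 12 regions were higher in each. Its library medians were 2.72 and 2.46 in POSR1, 2.68 and 2.87 in POSR2, and -0.36, 0.27 and -0.02 in POS. Outside chr19:28284108-28285109, no POS library exceeded 2.94 CPM in the 12 regions. The listed regions are a union over POSR and POS, so regions weak in POS may be listed through POSR alone. Their being higher in POSR then follows in part from the listing. The segment 52 to 54 Mb, lowest in the comparison of POS with NEG, stood at 2.31 in POSR1, with 13 of 14 regions higher, and at 1.15 in POSR2, with 10 of 14 higher. The nearest p-arm segment, 19 to 21 Mb, had 0.49 in POSR1 and 0.53 in POSR2.

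**Figure D3:**
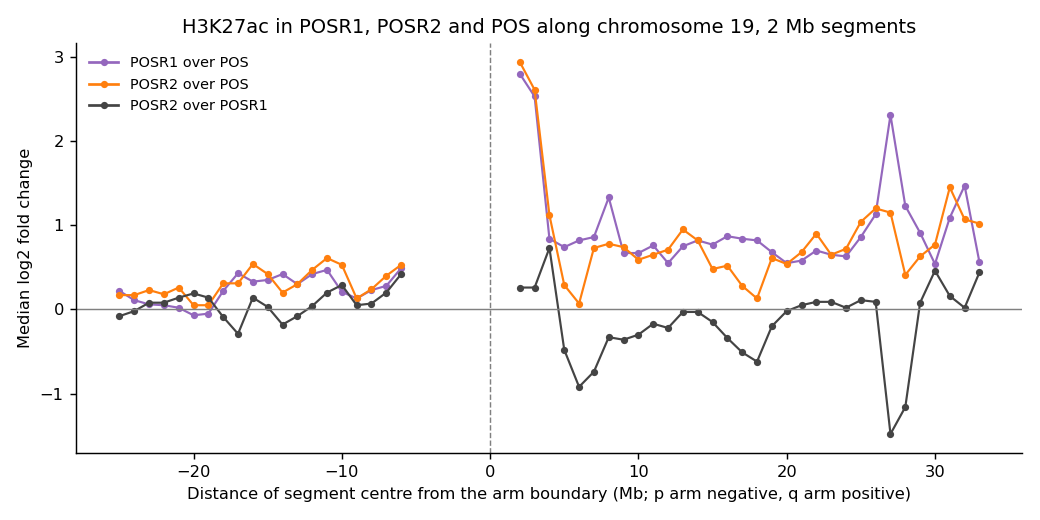
Median log2 fold change of H3K27ac in 2 Mb segments of chromosome 19 against distance from the arm boundary, for POSR1 over POS, POSR2 over POS and POSR2 over POSR1. Both comparisons with POS peak in the first q-arm segment, at 2.80 and 2.94, and stay above 0 over the whole q arm; the line for POSR2 over POSR1 reaches -1.48 at 52 to 54 Mb.

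The first q-arm regions held the strongest change of the chromosome in POSR. At chr19:28349138-28350139, H3K27ac was 40.6 and 40.9 CPM in POSR1, 18.7 and 23.3 CPM in POSR2 and 0.121, 0.589 and 0.151 CPM in POS. The log2 fold changes were 7.25 ± 0.28 and 6.29 ± 0.32. At chr19:28463151-28464152 the levels were 34.5 and 32.7 CPM in POSR1, 26.6 and 23.3 CPM in POSR2, and 0, 0.785 and 0.454 CPM in POS (6.51 ± 0.27 and 6.09 ± 0.29). In POS these 2 regions held 5 and 7 counts in all, so the folds rest on few POS reads and their SE is likely too small. The neighbouring region chr19:28284108-28285109 was already marked in POS, at 17.4, 14.7 and 19.8 CPM, and rose to 79.3 and 76.2 CPM in POSR1 and 71.4 and 67.4 CPM in POSR2 (2.16 ± 0.17 and 2.00 ± 0.17). Among the 24 regions between 27 and 31 Mb, 22 were higher and none lower in POSR2. In POSR1 all 12 regions from 27 to 29 Mb were higher, but only 6 of 12 from 29 to 31 Mb, and chr19:30178301-30179302 stood at -1.43 ± 0.32.

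**Figure D4:**
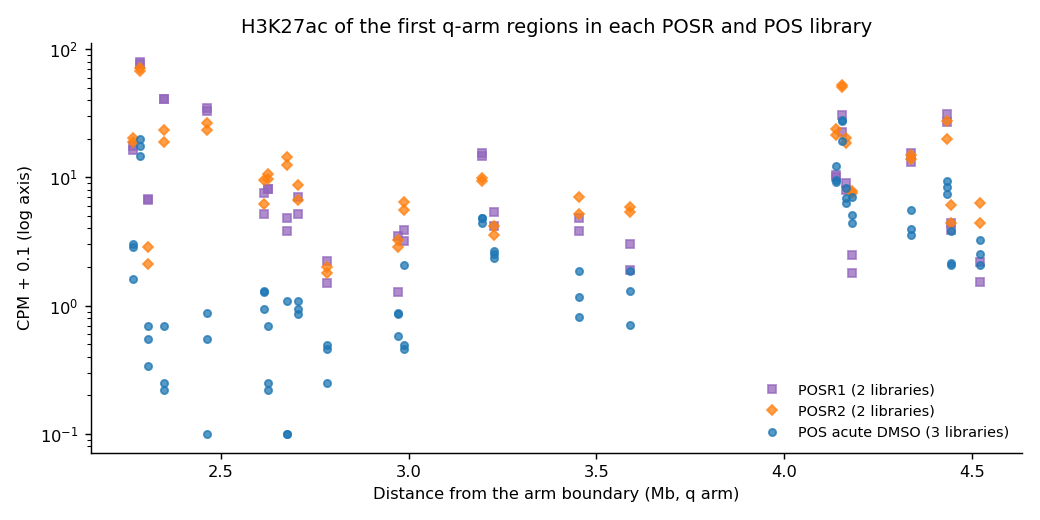
H3K27ac in each of the 24 regions between 27 and 31 Mb against distance from the arm boundary, in the 2 POSR1, 2 POSR2 and 3 POS libraries (CPM plus a small constant, log axis). Close to the boundary all POSR points lie above all POS points of the same region, while in the 4 regions that start from 30136848 to 30178301 the POSR1 points overlap with the POS points or lie below them and the POSR2 points lie above.

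Other named regions of POSR lay on both arms. At chr19:37063969-37064970 on the q arm, POSR1 had 25.6 and 24.2 CPM, POSR2 3.47 and 2.37 CPM and POS 2.17, 1.57 and 1.51 CPM. The change over POS was 3.78 ± 0.21 in POSR1 and 0.71 ± 0.33 in POSR2, which did not pass the threshold. At chr19:58162580-58163581 the difference between POSR2 and POSR1 was -0.05 ± 0.16, with 58.7 and 54.8 CPM in POSR1, 54 and 55.7 CPM in POSR2 and 9.64, 5.1 and 9.68 CPM in POS. Those that were lowest relative to POS included chr19:2576860-2577861 on the p arm, with 1.69 and 1.67 CPM in POSR1, 4.19 and 4.6 CPM in POSR2 and 21.2, 15.1 and 16 CPM in POS. All 4 named lower regions of POSR1 lay on the p arm, at log2 fold changes of -3.39 to -1.81. Of the 4 in POSR2, 2 lay on each arm, at -2.19 to -1.72.

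POSR2 and POSR1 differed from each other at regions of both arms. Of the chromosome's regions, 205 of 1051 were higher and 194 lower in POSR2, where 21.2% of all regions were higher and 19.3% lower (40.5% called). These shares of the chromosome, 19.5 and 18.5%, are near the background. By arm they were not alike: 105 were higher and 48 lower on the p arm, and 100 were higher and 146 lower on the q arm. The medians were 0.07 on the p arm, -0.08 on the q arm and 0 over all regions, and per library the q arm minus the p arm was -0.12 and -0.17 in POSR2 and 0.01 and -0.01 in POSR1. The count of 399 called regions fell to 261 without the second POSR1 library, and DESeq2 called 265.

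Segments of the q arm that departed by 0.5 or more between POSR2 and POSR1 formed 3 lower stretches and 1 higher segment, and many called regions lay outside them. Lowest was 52 to 54 Mb, at -1.48 over 14 regions, of which 11 were lower and 1 higher, and where the POSR2 libraries stood at -1.27 and -1.42 against 0.05 and -0.05 in POSR1. From 31 to 34 Mb the median was -0.89, with 16 of 24 regions lower and 3 higher, and from 42 to 45 Mb it was -0.47, with 37 of 78 lower and 2 higher. The segment 29 to 31 Mb was higher in POSR2, at 0.73 over 12 regions, with POSR2 libraries at 0.82 and 0.76. There, chr19:30136848-30137849 had 23.8 and 21.4 CPM in POSR2, 10.3 and 10 CPM in POSR1 and 9.04, 12.2 and 9.53 CPM in POS. POSR1 overlapped with POS in that region and POSR2 did not (difference 1.16).

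Named regions that differed between the 2 groups showed different positions relative to POS. At chr19:53426058-53427059, POSR1 had 33.6 and 28.8 CPM, POSR2 5.62 and 6.04 CPM and POS 4.34, 3.73 and 4.54 CPM, so that POSR2 lay near POS (difference -2.41 ± 0.17). At chr19:15149122-15150123 on the p arm POSR1 was the group apart, downward, with 3.23 and 2.75 CPM against 22.6 and 18.7 CPM in POSR2 and 14, 12.6 and 10.3 CPM in POS (2.79 ± 0.21). At chr19:31942536-31943537 the groups lay on either side of POS, with 22.6 and 23.3 CPM in POSR1, 5.03 and 3.94 CPM in POSR2 and 8.92, 8.24 and 7.87 CPM in POS (-2.35 ± 0.19). The q-arm region chr19:54344087-54345088 showed the same order, with 31.3 and 34.1 CPM in POSR1, 6.46 and 8.02 CPM in POSR2, and 16.4, 11.8 and 13.2 CPM in POS.

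Trametinib for 24 hours moved the chromosome little as a whole. In POS the median log2 fold change was 0 on the p arm, -0.07 on the q arm and 0.02 over all 50345 regions tested, with 204 regions higher and 237 lower of 951, where 26.7% of all regions were higher and 26% lower. In NEG it was 0.17 on the p arm, 0.02 on the q arm and 0.04 over all 54409, with 105 higher and 53 lower of 392 on the p arm and 95 and 87 of 441 on the q arm, against 17.2% higher and 19.3% lower over all. The chromosome median in NEG, 0.1, was the highest of 23 chromosomes, with the next at 0.09. DESeq2 called 194 regions of the chromosome in NEG against 340 by edgeR. No 2 Mb segment in either cell type departed from the median of all regions by 0.5 or more, but 1 Mb segments reached 0.61 and -0.65 in POS and 0.73 in NEG, and 25 consecutive regions 0.69 and -0.77 in POS. The lowest 2 Mb segments were 44 to 46 Mb in POS, at -0.46 with 23 of 45 regions lower, and 42 to 44 Mb in NEG, at -0.37 with 19 of 44 lower. Their libraries stood at -0.50, -0.37 and -0.37 in treated POS and at -0.44 and -0.30 in treated NEG.

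The named single regions, picked by their fold change, responded strongly at 24 hours. At chr19:3141375-3142376 on the p arm, POS cells went from 29.8, 20.9 and 30.1 CPM in DMSO to 2.01, 3.08 and 2.23 CPM in trametinib (-3.51 ± 0.19). Treated and control libraries did not overlap, as the rule for naming regions requires. The matching regions changed by -1.06 ± 0.13 in NEG at 24 hours, -3.25 ± 0.25 in POS at day 14 and -0.61 ± 0.14 in NEG at day 14. Nearby, chr19:2461987-2462988 went from 32.9, 21.7 and 26.3 CPM to 5.1, 5.64 and 6.24 CPM in POS (-2.26 ± 0.16). In NEG the matching region, starting at 2461973, went from 74.5 and 77.3 CPM to 19.6 and 22.7 CPM (-1.84 ± 0.13). At day 14 the log2 fold change of its matches was -1.51 ± 0.14 in NEG and -1.24 ± 0.18 in POS, so this region was lower under trametinib in all 4 comparisons. The q-arm region chr19:46573293-46574294 stood at 26.2, 20.3 and 19.5 CPM in POS control libraries and at 2.55, 4.44 and 2.34 CPM in treated ones (-2.89 ± 0.19). In NEG, chr19:8420573-8421574 had 26.2 and 32.9 CPM in control and 3.03 and 5.97 CPM in treated libraries (-2.71 ± 0.20).

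Higher regions at 24 hours were led in POS by chr19:39049575-39050576 on the q arm, which had 11.7, 7.92 and 8.26 CPM in DMSO and 30.2, 31.1 and 36.9 CPM in trametinib (1.79 ± 0.15). The POS match at day 14 stood at 1.85 ± 0.16. In NEG a region that starts at 39050361 and partly covers the same stretch went from 5.16 and 5.58 CPM to 22.4 and 19.2 CPM (1.95 ± 0.21). NEG was led by chr19:10877521-10878522 on the p arm, at 3.77 and 4.18 CPM in DMSO and 17.6 and 20.2 CPM in trametinib (2.24 ± 0.23). No control value of these named regions reached its treated values, as the rule for naming regions requires. POS and NEG have separate controls, and of 107 matched regions called in both at 24 hours, 97 had the same direction (90.7%), against 92.1% over all chromosomes.

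At day 14 of trametinib the chromosome as a whole carried more H3K27ac in POS. The median log2 fold change over day 0 was 0.40 on the p arm and 0.42 on the q arm, against 0.03 over all 44304 regions tested, and the chromosome median of 0.41 was the highest of 23, with the next at 0.39. By quartile of mean level the arms differed: from the weakest to the strongest group the p-arm medians were -0.11, 0.01, 0.49 and 0.58 and the q-arm medians 0.47, 0.32, 0.27 and 0.58. Per library the p-arm median was 0.36 and 0.37 at day 14 and 0.05 and -0.05 at day 0, and the q-arm median 0.45 and 0.43 against 0.03 and -0.03. The 2 time points did not overlap on either arm. Per-library medians over all regions did not overlap either, at 0.03 and 0.03 against 0 and 0, but they lay far closer together. Of 878 regions 422 were higher and 190 lower, where 39.5% and 38.2% of all regions were. NEG moved less, with medians of 0.14 and 0.18 on the arms against 0 over all 28179 regions, and 195 regions higher and 82 lower of 601, where 24.8% and 23.8% of all were. In NEG the arm medians per library were 0.14 to 0.18 at day 14 and -0.03 to 0.03 at day 0. DESeq2 called 134 regions of the chromosome in NEG against 277 by edgeR.

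**Figure D5:**
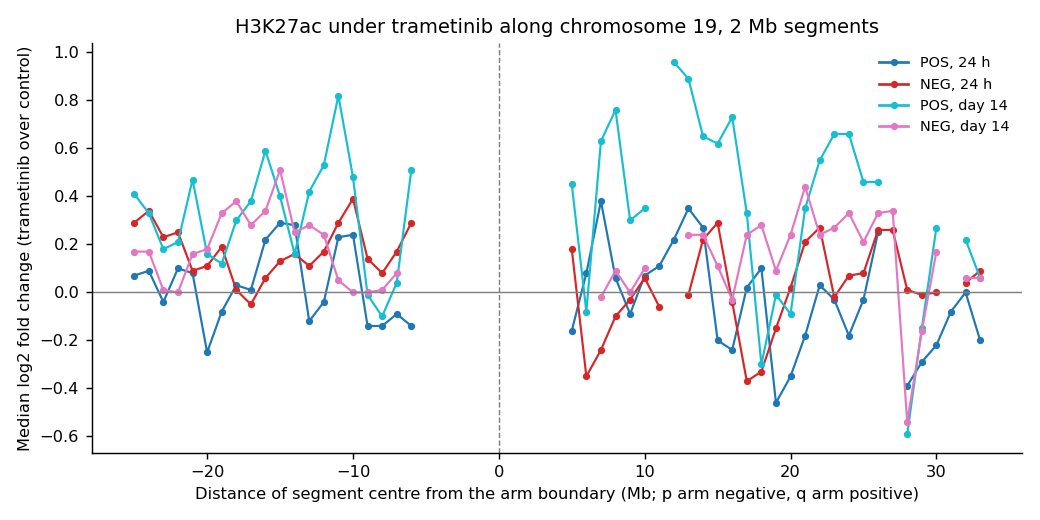
Median log2 fold change of H3K27ac under trametinib in 2 Mb segments of chromosome 19 against distance from the arm boundary, for POS and NEG at 24 hours and at day 14. The 24-hour lines stay between -0.46 and 0.39; the POS day 14 line lies above 0 in 38 of 46 segments and reaches 0.96, and both day 14 lines have their lowest point at 53 to 55 Mb.

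Segments at day 14 rose on both arms. In POS the highest was 37 to 39 Mb, at 0.96 with 14 of 21 regions higher and 1 lower, and the stretch from 37 to 43 Mb had a median of 0.75 over 104 regions. On the p arm, 13 to 16 Mb had a median of 0.69 over 64. In NEG the highest was 10 to 12 Mb, at 0.51 with 13 of 25 regions higher and 1 lower. The lowest segment was 53 to 55 Mb in both cell types, at -0.59 in POS, with none of 11 regions higher and 6 lower, and at -0.54 in NEG, with 2 of 19 higher and 11 lower. At day 14 the POS libraries stood there at -0.48 and -0.68 and the NEG libraries at -0.51 and -0.52, below all of the day 0 libraries.

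Several named decreases in both cell types lay close together on the distal q arm. In POS, chr19:54523446-54524447 went from 28.9 and 25.7 CPM at day 0 to 2.4 and 2.74 CPM at day 14 (-3.41 ± 0.25), and its match in NEG changed by -1.03 ± 0.13. In NEG, chr19:54510939-54511940 went from 148 and 150 CPM to 42.1 and 38.9 CPM (-1.88 ± 0.12), with -2.90 ± 0.49 in POS. This region is also the first of the named lower regions in POS against NEG at day 0. At 24 hours in NEG, chr19:54538923-54539924 was at 42.3 and 42 CPM in DMSO and at 9.29 and 14.4 CPM in trametinib (-1.83 ± 0.15). That the 3 regions were lower under drug in the cell type named for each, without overlap between treated and control libraries, follows from how they were named.

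Several named day 14 increases in POS started from low levels, which follows in part from ranking by fold change. The listed regions are a union over day 14 and day 0, so regions weak at day 0 may be listed through day 14 alone. At chr19:34525367-34526368 on the q arm, H3K27ac was 0.535 and 0.897 CPM at day 0 and 31.7 and 34.7 CPM at day 14 (5.58 ± 0.32), and the POS match at 24 hours stood at 1.68 ± 0.49. At chr19:9811399-9812400 on the p arm it went from 0.714 and 0.897 CPM to 25.5 and 28.2 CPM (5.05 ± 0.33). These regions held 6 and 7 counts at day 0, so the folds rest on few reads and their SE is likely too small. In NEG, chr19:9733164-9734165 went from 3.97 and 4.23 CPM to 49 and 48.6 CPM (3.56 ± 0.24). The 2 p-arm regions, 1 in each cell type, lie within the same megabase. Of 148 matched regions called in both cell types at day 14, 118 had the same direction (79.7%, against 76.3% over all chromosomes), with 84 higher and 34 lower in both. A further 20 were lower in POS and higher in NEG, and 10 the reverse.

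In the authors' deposited table of POS against NEG, 177 regions of the chromosome were higher and 384 lower, with a q-arm median of -1.03 and a p-arm median of -0.19. For JUNB the authors' deposited table listed 269 higher and 647 lower sites, with a q-arm median of -0.98. The authors' deposited table of POSR, which pools both groups, listed 423 higher and 51 lower regions, with a q-arm median of 0.72. In the authors' deposited table of POS at day 14, 298 regions were higher and 106 lower.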

How the data were processed

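H3K27ac and JUNB chromatin immunoprecipitation was sequenced in SUM-229PE cells; 22 H3K27ac and 4 JUNB libraries were used, and 10 inputs have no count column. Samples were grouped by title. Named in the submitters' processing notes are hg19, STAR 2.5.2b, cutadapt 1.12, MACS2, featureCounts and DESeq2; how each was set is not given in the sources used here. As deposited, the values are raw counts per region and library in 7 tables, each with its own union of regions, 1001 bases wide for H3K27ac and 201 for JUNB. The authors also deposited DESeq2 tables with log2 fold changes, mean signal (normalized counts per region), test scores and p-values, of which only log2 fold changes and adjusted p-values were used. In the acute table, drug columns bear a different code; they were read as trametinib, as the table is named. Starts are printed as the tables give them, and their first base number is not stated.

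Counts were tested with edgeR 4.0.16 in R 4.3.3 (TMM scaling, a filter with minimum count 10, prior count 2, Benjamini-Hochberg adjustment over all regions of each of 10 tests). Each comparison was fitted in its own table with the groups compared; POSR1, POSR2 and POS shared 1 fit. DESeq2 1.42.0, other scalings, no filter, a replicate block, other segment lengths and leaving out each library were alternatives. The test was checked on simulated data. Named segments were the highest and lowest of each comparison, and runs of segments at least 0.5 from the median of all regions. Named regions were the first 4 higher and 4 lower by log2 fold change among called regions whose mean level reached the table's median and whose groups did not overlap. Regions matched to named ones in other tables, those between 27 and 31 Mb and those chosen for a direction against their surroundings were picked after values were seen. The members and lists were chosen with earlier results of these data known. Plots used python 3.11.15 and matplotlib 3.10.9.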

Additional observations from a re-analysis of the deposited data

Results flagged for a closer look

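At 19 named regions of chromosome 19 the change over POS differed between POSR1 and POSR2 past the threshold of the fit (values are log2 differences, POSR2 minus POSR1). All 19 were named as extremes of POSR1 or POSR2 over POS, or of POSR2 against POSR1, in these same libraries, so the differences and their directions follow in part from that choice and are a description. On the q arm, the difference was -0.96 at 28349138, -0.43 at 28463151, -0.78 at 58010935 and -0.64 at 51977595, where both groups lay above POS. It was -3.07 at 37063969 and -2.41 at 53426058, where POSR1 lay well above POS. At 31942536 (-2.35) and 54344087 (-2.18) POSR1 lay above POS and POSR2 below. Both groups lay below POS at 41091056 (-1.1), and POSR2 was the lower at 56058698 (-1.93). The 2 remaining q-arm regions were higher in POSR2, by 1.37 at 48127242 and by 2.12 at 47873488.

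The 7 p-arm regions of this kind had higher values in POSR2, a direction that their naming set for some and only favoured for others. They were 15149122 (2.79), 19723811 (2.09), 13145057 (1.92), 610689 (1.83), 6537652 (1.65), 2576860 (1.38) and 4869412 (0.82). The first 3 were named as the highest in POSR2 against POSR1, which sets their direction. The last 4 were named as the lowest in POSR1 against POS, which favours it without setting it. Of these, 2576860 was also named among the lowest in POSR2 against POS (-2.01). No group has more than 3 libraries, so single libraries that stand apart were not tested for.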

How the results depend on the processing

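The named regions kept their direction and their side of the threshold under all alternatives run. Of the counts of called regions, DESeq2 moved 4 by over 1.5 times: to 194 from 340 in NEG at 24 hours, 134 from 277 in NEG at day 14, 265 from 399 in POSR2 against POSR1, and 1117 from 1977 for JUNB. Leaving out 1 library gave counts of 635 to 755 in POS against NEG, 372 to 476 and 263 to 308 in POS and NEG at 24 hours, 514 to 616 and 198 to 255 at day 14, 502 to 666 in POSR1, 522 to 663 in POSR2, 261 to 306 in POSR2 against POSR1, 1241 to 1706 for JUNB and 294 to 311 at day 0.

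The q-arm median minus the p-arm median, leaving out 1 library, was -0.84 to -0.78 in POS against NEG, -0.1 to -0.04 and -0.17 to -0.12 in POS and NEG at 24 hours, 0.02 to 0.12 in POS at day 14, 0.57 to 0.62 in POSR1, 0.39 to 0.43 in POSR2, -0.18 to -0.12 in POSR2 against POSR1, -1.03 to -0.91 for JUNB and -0.73 to -0.65 at day 0. In NEG at day 14 it was 0.04 and ranged from -0.03 to 0.06, with -0.03 without the first day 14 library and 0.00 without the first day 0 library, so its sign is not fixed. A reciprocal overlap of 80% gave -0.71 at day 0.

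The extremes of the segments depended on segment length; fewer or more regions per segment change them by construction. With 1 Mb segments, the highest and lowest medians were 0.61 and -0.65 in POS at 24 hours, 0.73 and -0.46 in NEG at 24 hours, and 1.5 and -2.07 for JUNB. The highest was 1.23 in POS and 0.63 in NEG at day 14 and 0.33 in POS against NEG at day 0. The lowest was -0.54 in NEG at day 14, -0.52 in POSR1, -0.25 in POSR2 (0.05 with 2 Mb, a reversal), -1.11 in POSR2 against POSR1 and -1.44 at day 0. With 4 Mb segments, the pairs were 0.56 and -1.47 in POS against NEG, 0.26 and -0.28 in NEG at 24 hours, 0.88 and -0.04 in POS at day 14, 0.38 and -0.09 in NEG at day 14, 0.44 and -0.50 in POSR2 against POSR1, and 0.08 and -1.32 for JUNB. The lowest was then -0.28 in POS at 24 hours, the highest was 2.61 in POSR2, and day 0 had -0.05 (0.11 with 2 Mb, a reversal) and -1.20. With 25 consecutive regions, the pairs were 0.78 and -1.80 in POS against NEG, 0.69 and -0.77 in POS at 24 hours, 0.70 and -0.28 in NEG at day 14, 2.08 and -0.46 in POSR1, 2.14 and -0.16 in POSR2 (a reversal), 1.89 and -2.51 for JUNB, and 0.04 and -1.42 at day 0. The lowest was -0.46 in NEG at 24 hours, and the highest was 1.33 in POS at day 14 and 0.61 in POSR2 against POSR1. In POS at day 14 and in POSR2 against POSR1, the lowest over 25 consecutive regions was -0.53 and -1.42. These values are extremes of the whole chromosome, kept without their positions. The width of the lows at 53 to 55 Mb and at 52 to 54 Mb was therefore not measured.

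Replicate numbers are shared by title only. Deviations of same-numbered libraries from their group means (log CPM) correlated at 0.119, 0.375 and -0.0159 in POS at 24 hours. In POSR1 against POS they correlated at -0.202 and -0.191. With so few libraries these values do not settle whether the numbers pair the samples. A fit with the replicate number as a block moved no count by over 1.5 times and gave an arm difference of 0.39 in POSR2 against 0.42 without it. In POS at 24 hours it called 478 regions of the chromosome, against 441 without it. Regions with few counts limit single values, and a change in DNA copies cannot be told apart from one in the mark.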
